A study of Mus musculus with 6 samples.

Results

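The 8 genes described here, Cpt1a, Acot1, Pdk4, Ehhadh, Plin5, Angptl4, Fgf21 and Acadm, serve fatty acid oxidation, ketogenesis and the fasting response of liver. They were taken by gene symbol from the annotation of an Illumina mouse bead array. They had 13 of the array's 45281 probes, and 9 of these probes, belonging to 7 genes, were detected on at least 1 array. Detection meant an intensity over 129, a level exceeded by a share of 0.01 of the background signal. In the whole annotation 14731 named probes were detected, for 10039 of 19057 named genes.

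The 6 arrays each held a pool of RNA from liver, labelled liver slice, of FVB mice aged 10 weeks. LIXs mice carry a transgene from which doxycycline (Dox) induces Xbp1s, a transcription factor made when stress in the endoplasmic reticulum (ER) leads to splicing of Xbp1 mRNA, and the study asked how this alters liver expression. The groups were LIXs at 24 h of Dox chow, wild type (WT) at 24 h of Dox chow, LIXs and WT at 48 h of Dox chow, WT fasted for 24 h without Dox, and WT refed for 2 h without Dox. All Dox mice, WT included, had been without food for 6 h. The labels do not give the promoter or cell type that restricts the transgene, the number of animals in a pool or the length of the fast before refeeding. Every group was 1 pool on 1 array, so no group has a spread of its own. The Xbp1 probe lay between 4259 and 5210 on all arrays and does not check the genotype labels. Dnajc3 and Syvn1, both established Xbp1s targets, went against the genotype labels. For Dnajc3, an ER co-chaperone, LIXs minus WT was -1.32 ± 0.22 (log2 ± SE, limma adjusted p = 0.023). For Syvn1, a ubiquitin ligase of the ER, it was -1.21 ± 0.25 (limma adjusted p = 0.030). Both genes were named after their values were seen, and how other Xbp1s targets differed is not given here. Every direction of LIXs against WT given here is therefore that of the labels, and if these labels were exchanged it would turn round. Fasted against refed WT uses no Dox array and would not change. Fasted WT against WT on Dox would then be a comparison with other pools, not a reversed one.

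Fasting liver takes up fatty acids released by adipose tissue and burns them in mitochondria and peroxisomes, and it exports part of the product as ketone bodies. Entry into mitochondria runs through carnitine palmitoyltransferase 1, encoded in liver mainly by Cpt1a. The nuclear receptor Ppara, paired with Rxra and activated by fatty acids, is known to switch on genes of this pathway, among them all 8 described here, and insulin opposes this after feeding.

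Promoter windows were examined because the genes are established targets of the same receptor. RefSeq promoters on GRCm38.p6, each covering 250 bases before to 50 after a transcription start, were found for 7 of the 8 genes in 8 windows. The sequences below are those of Acot1 and Plin5, the genes that passed the genotype test, and of Fgf21, whose highest array was the fasted one. Capitals mark AGGTCA, the half-site of such receptors, in Plin5, and TATAAA in Fgf21.
Acot1 (chr12:84009252-84009551, plus strand): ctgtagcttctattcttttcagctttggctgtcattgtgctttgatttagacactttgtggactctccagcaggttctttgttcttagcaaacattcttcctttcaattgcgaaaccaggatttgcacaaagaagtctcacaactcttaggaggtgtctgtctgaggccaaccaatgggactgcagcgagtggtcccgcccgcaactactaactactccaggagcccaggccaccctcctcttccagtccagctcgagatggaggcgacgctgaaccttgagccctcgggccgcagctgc
Plin5 (chr17:56117499-56117798, minus strand): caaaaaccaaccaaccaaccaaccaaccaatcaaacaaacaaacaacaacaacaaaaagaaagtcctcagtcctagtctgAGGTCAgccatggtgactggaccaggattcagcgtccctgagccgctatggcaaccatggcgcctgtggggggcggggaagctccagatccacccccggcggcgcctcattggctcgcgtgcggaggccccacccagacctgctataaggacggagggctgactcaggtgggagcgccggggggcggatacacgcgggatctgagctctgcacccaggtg
Fgf21 (chr7:45615441-45615740, minus strand): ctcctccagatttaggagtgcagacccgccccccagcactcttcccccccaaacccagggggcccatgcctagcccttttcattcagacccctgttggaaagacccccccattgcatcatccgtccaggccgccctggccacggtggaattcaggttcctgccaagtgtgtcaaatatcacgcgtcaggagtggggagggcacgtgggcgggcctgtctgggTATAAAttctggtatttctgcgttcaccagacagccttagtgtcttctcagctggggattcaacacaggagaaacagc
The receptor pair binds 2 half-sites in the same direction with 1 base between them. That motif, AGGTCANAGGTCA, was searched on both strands and stood in 0 of the 8 windows, against 0.0396% of 32851 windows of all genes. Its relaxed form AGGNCANAGGNCA, which includes every match of the first, was also in 0 of 8 windows and in 0.381% of all. A single AGGTCA, on either strand, was in 4 of the 8 windows, those of Cpt1a and Acadm and the 2 windows of Plin5, each with a site of its own, against 16.3% of all. TGACGTG, a core bound by Xbp1s, was in 0 of 8 and in 2.01% of all windows. TATAAA, searched on the given strand, was in the Fgf21 window alone of the 8, 28 bases before the start, and in 8.32% of all. These matches describe letters in a short window and say nothing of binding.

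Whole-series facts that touch the results were as follows. Of 10 hepatocyte markers 9 were detected on every array, Tat being the exception. The summed intensity of 12 pancreatic acinar markers was 14762 on the LIXs array at 24 h and between 2211 and 3384 on the others, so that array stood apart. The summed intensity of 7 acute phase markers was 155379 on the refed array and between 77471 and 104231 elsewhere. Of the markers of adipocytes and muscle, tissues that also express several of the genes studied, Adipoq, Fabp4, Plin1 and Retn for the one and Acta1, Ckm, Mb, Myh1 and Tnnt3 for the other were not detected on any array. Of the rest, Myh4 and Myl1 were each detected on 1 array. Lep and Lipe were detected on the refed array alone, at 136 and 134. Cidec was detected on the refed array at 132 and in WT at 24 h of Dox at 130. Car3, an adipocyte marker that hepatocytes also express, had 5223 in the LIXs-labelled and 1721 in the WT-labelled pool at 24 h. Car3 rose on the arrays labelled LIXs by 1.16 ± 0.26 (limma adjusted p = 0.031). The summed intensity of the adipocyte markers was 6006 on the LIXs array at 24 h, most of it from Car3, and between 2542 and 3841 on the others. The part of these markers in the results was not tested. In bulk liver RNA, fewer cells of a type and less RNA per cell cannot be told apart.

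The genes differed in which pool was highest. Values of single arrays are the authors' deposited, normalized intensities, and levels of different probes were not compared. Differences and folds are on a log2 scale after background correction, which widens the differences of dim probes. Where a probe was not well above background on 1 side, an "at least" fold is a bound on that corrected scale, and the deposited intensities can differ less.

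Acot1 encodes a cytosolic thioesterase that releases free fatty acids from acyl-CoA. Its intensity was 2548 in the LIXs-labelled and 768 in the WT-labelled pool at 24 h of Dox, 2456 in the LIXs-labelled and 1636 in the WT-labelled pool at 48 h, and 4103 in fasted and 4878 in refed WT. The LIXs pools were nearly equal to each other and stood above both WT Dox pools, and both pools without Dox were higher still. From its lowest to its highest array the intensity differed 6.35-fold, the widest range of the 7 genes. On the corrected scale 6 of the 7 genes ranged at least 2-fold over the 6 arrays, against 56.5% of all detected genes. A dimmer second probe had 283 in the LIXs-labelled and 163 in the WT-labelled pool at 24 h, 288 and 227 in the same order at 48 h, and 501 in fasted and 721 in refed WT. Both probes gave the WT pool at 24 h as the lowest and the refed pool as the highest. Another Acot1 probe, between 103 and 114, was not well above background. The Acot genes are a family with similar sequences, so a probe could also report a relative. Acot3 had 502 in the LIXs-labelled and 468 in the WT-labelled pool at 24 h, 477 and 292 at 48 h, and 497 in fasted and 771 in refed WT, and Acot4 lay between 279 and 469. All 3 Acot2 probes were at or near background, with 1 of them detected on 1 array, and Acot5 was not detected. Acot6 was detected on the Dox arrays at 48 h alone, at 133 in LIXs and 132 in WT.

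Plin5, a lipid droplet protein that links droplets to mitochondria, had 539 in the LIXs-labelled and 359 in the WT-labelled pool at 24 h and 445 in the LIXs-labelled and 295 in the WT-labelled pool at 48 h. Fasted WT had 365 and refed WT 445. The LIXs pools did not overlap the WT Dox pools, and the refed pool equalled the LIXs pool at 48 h. A second, dimmer probe gave another order, with 164 in the LIXs-labelled and 147 in the WT-labelled pool at 24 h, 146 and 149 at 48 h, and 260.3 in fasted and 164 in refed WT. On that probe the fasted pool alone stood apart.

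**Figure D1:**
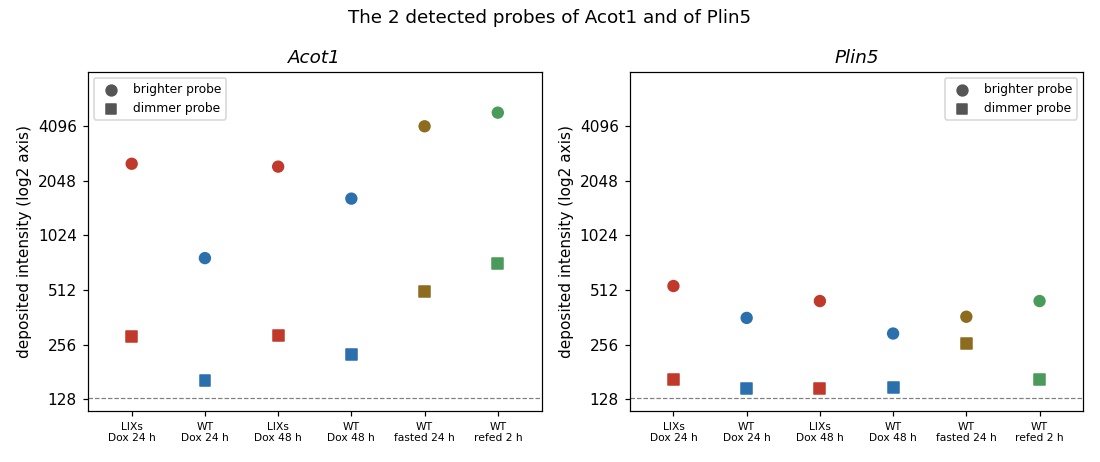
Deposited intensity (log2 axis) of the 2 detected probes of Acot1 (left) and of Plin5 (right) on the 6 arrays, 1 pool per point; circles are the brighter probe, squares the dimmer, and the dashed line is the detection level of 129. Both Acot1 probes order the arrays alike at the extremes, whereas the fasted pool is the highest on the dimmer Plin5 probe (260.3) and in the middle on the brighter one (365).

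Angptl4, a secreted inhibitor of lipoprotein lipase, had 3071 in the LIXs-labelled and 1874 in the WT-labelled pool at 24 h, and 2299.8 in the LIXs-labelled and 1517 in the WT-labelled pool at 48 h. The fasted pool had 1031 and the refed pool 2454. Its lowest array was therefore the fasted one, and the LIXs pools stood above the WT Dox pools. A second Angptl4 probe, between 108 and 125, was not well above background.

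Fgf21, a hormone that liver releases during fasting, had 613 in the LIXs-labelled and 555 in the WT-labelled pool at 24 h, and 911 in the LIXs-labelled and 549.5 in the WT-labelled pool at 48 h. Fasted WT had 1225 and refed WT 667. The fasted pool was the highest and the WT Dox pools were the lowest.

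Acadm, the mitochondrial dehydrogenase for medium-chain acyl-CoA, was bright on every array. It had 7209 in the LIXs-labelled and 6168 in the WT-labelled pool at 24 h, 8639 in the LIXs-labelled and 6574 in the WT-labelled pool at 48 h, and 10930.1 in fasted and 9413 in refed WT. As for Fgf21, the fasted pool was highest and the WT Dox pools lowest, here over a narrow 1.77-fold range.

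Ehhadh, an enzyme of peroxisomal oxidation, had 288 in the LIXs-labelled and 201 in the WT-labelled pool at 24 h, 239 in the LIXs-labelled and 252 in the WT-labelled pool at 48 h, and 189.6 in fasted and 405 in refed WT. The Dox pools overlapped between genotypes, and the fasted pool was the lowest.

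Pdk4 encodes the kinase that inactivates pyruvate dehydrogenase and so spares glucose. Its intensity was 191 in the LIXs-labelled and 161 in the WT-labelled pool at 24 h, 247 in the LIXs-labelled and 422 in the WT-labelled pool at 48 h, and 246 in fasted and 410.3 in refed WT. The highest and the lowest value were both WT pools on Dox.

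Cpt1a gave no usable level. Its probes lay between 106 and 122 and between 101 and 115, below detection on all 6 arrays, so no fold was computed. A dim probe does not show a scarce transcript: the brightest probe of Alb, whose mRNA is among the most abundant of hepatocytes, lay between 130.2 and 163.

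**Figure D2:**
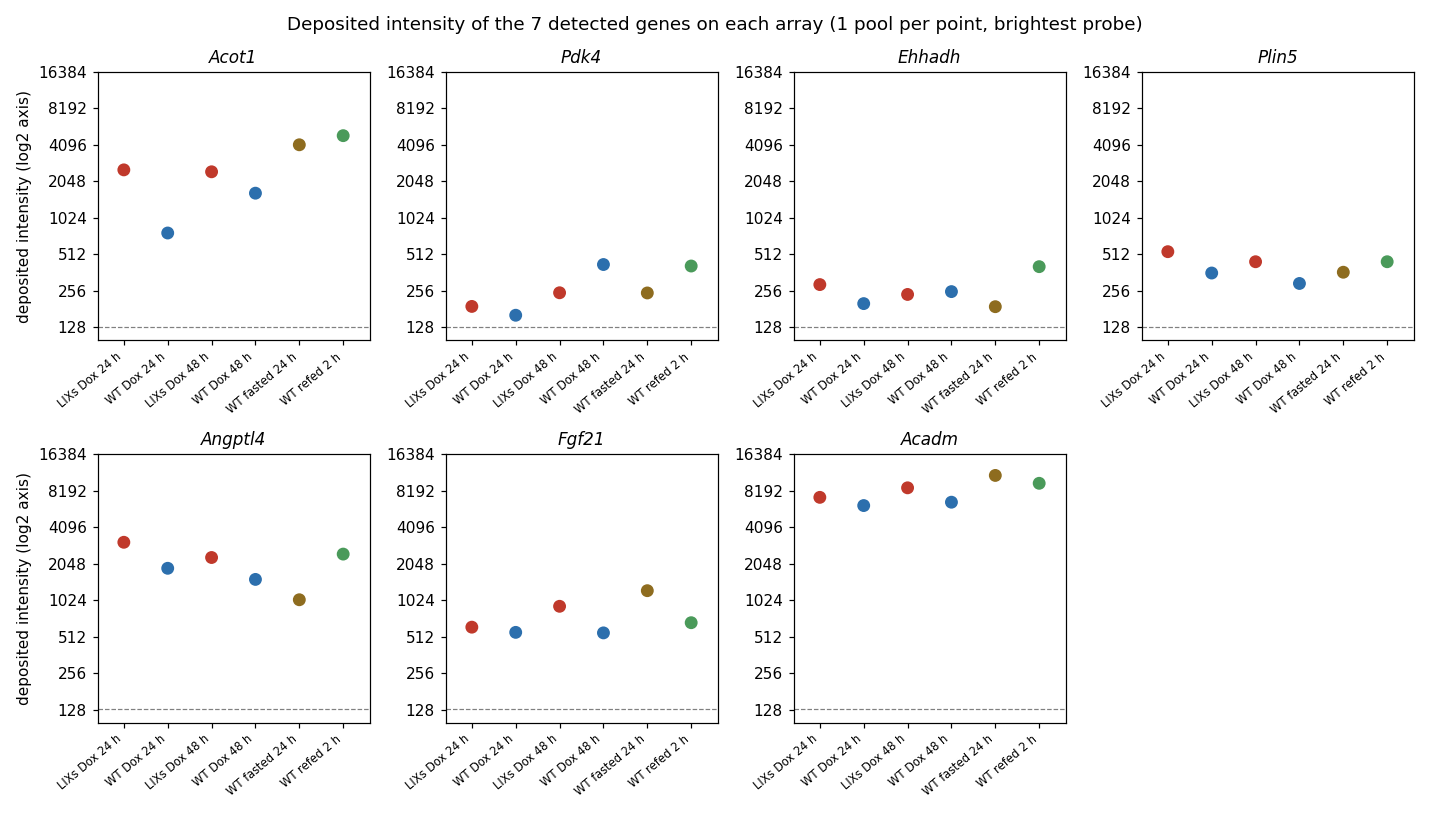
Deposited intensity (log2 axis) of the brightest probe of the 7 detected genes on the 6 arrays, 1 pool per point: pools labelled LIXs (red) beside WT (blue) at 24 h and 48 h of Dox, then WT fasted for 24 h and WT refed for 2 h. The dashed line is the detection level of 129. LIXs lies above WT at both times for all genes but Pdk4 and Ehhadh, while the highest array is fasted WT for Fgf21 and Acadm and refed WT for Acot1 and Ehhadh.

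LIXs was compared with WT on the 4 Dox arrays by limma, averaging the difference over 24 h and 48 h with time as a block. Acot1 rose on the arrays labelled LIXs, by 1.24 ± 0.28 in log2 units (SE, n = 2 and 2 arrays, limma adjusted p = 0.032), or 2.36-fold. Plin5 rose by 0.77 ± 0.21 (limma adjusted p = 0.048), or 1.71-fold, on its brighter probe. These were 2 of the 7 tested genes, against 4.33% of all 7652 tested genes that rose. None of the 7 fell, against 4.47% of all, and 8.8% of all changed in either direction. The genes were chosen with results of these arrays known, so these counts are a description.

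The remaining genes did not pass this test. Angptl4 differed by 0.69 ± 0.21 (limma adjusted p = 0.067) and Fgf21 by 0.51 ± 0.23 (limma adjusted p = 0.181). Without background correction both passed, Angptl4 at 0.66 ± 0.14 and Fgf21 at 0.44 ± 0.15 (limma). Acadm differed by 0.31 ± 0.21 and Ehhadh by 0.37 ± 0.26 (limma adjusted p = 0.359 and 0.381). Pdk4 differed by -0.29 ± 0.32 (limma adjusted p = 0.598). The median of the 7 differences was 0.51, against 0.01 over all tested genes. For 5 of 7 genes both LIXs pools lay above both WT Dox pools, as they did for 29.1% of all tested genes, and for 0 of 7 both lay below, against 26.9% of all. LIXs was above WT of the same time, at both times, for the same 5 genes, and in all tested genes this held for 36.1%. The 9 detected hepatocyte markers also had a median of 0.51, all 9 above 0 with 1 past the test, and their part in the result was not tested.

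With every named probe in the fit, the second Acot1 probe rose by 0.99 ± 0.25 (limma adjusted p = 0.037). The second Plin5 probe differed by 0.16 ± 0.23 (limma adjusted p = 0.687), so the call for Plin5 rests on 1 of its 2 probes.

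The differences were not equal at both times. For Acot1 the log2 difference was 1.86 at 24 h, or 3.64-fold, and 0.62 at 48 h, or 1.53-fold. The pools labelled LIXs differed by -0.05 between 48 h and 24 h, whereas those labelled WT differed by 1.19. The brighter Plin5 probe had 0.74 at 24 h and 0.80 at 48 h, whereas the dimmer one had 0.41 and -0.08. Angptl4 had 0.74 and 0.63. Fgf21 had 0.17 at 24 h and 0.84 at 48 h, and Acadm 0.23 and 0.40.

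Pdk4 and Ehhadh had opposite signs at the 2 times. For Pdk4 the difference of LIXs minus WT was 0.52 at 24 h and -1.10 at 48 h. In WT, Pdk4 was 4.84-fold higher at 48 h than at 24 h on the corrected scale, and 2.62-fold higher in deposited intensity. In LIXs it was 1.58-fold higher on the corrected scale. Between the WT pools the 2 of 7 past 2-fold were Pdk4 and Acot1, both higher at 48 h, against 2.45% of all genes, and 0 were lower, against 1.3%. Between the LIXs pools 0 were higher and 0 lower, against 0.5% and 0.825%. The effect of time on Pdk4 in the same fit was 1.47 (limma adjusted p = 0.222). Ehhadh differed between LIXs and WT by 0.86 at 24 h and -0.13 at 48 h.

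**Figure D3:**
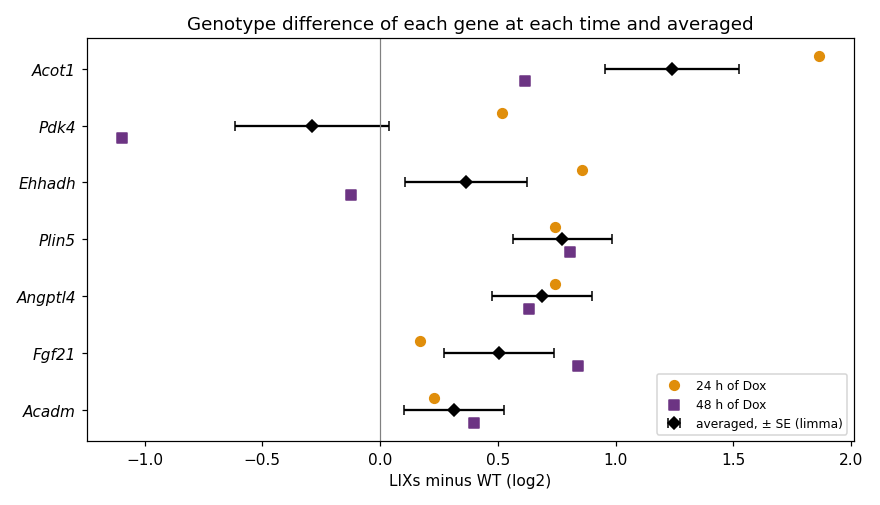
Log2 difference of arrays labelled LIXs minus arrays labelled WT for the 7 detected genes at 24 h (orange circles) and 48 h (purple squares) of Dox, 1 pair of pools each, and averaged over both times (black diamonds, with the SE of limma). Plin5 (brighter probe) and Angptl4 lie close together at both times, Acot1 has the largest difference at 24 h (1.86), and Pdk4 changes sign (0.52 and -1.10).

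The array with the high pancreatic signal, LIXs at 24 h, enters every averaged value. The pair at 48 h, which does not use it, differed by 0.62 for Acot1 and by 0.80 for the brighter Plin5 probe. In a fit without that array and without the time block, Acot1 differed by 1.21 and Plin5 by 0.60. That fit sets LIXs at 48 h against WT at both times, so it mixes genotype with time. The differences kept their sign and 0 genes of any kind passed, with 638 at an unadjusted p under 0.05, in that fit of 3 arrays. At 2-fold, Acot1 was the 1 gene of 7 higher in LIXs at 24 h, against 3.72% of all genes, and Pdk4 the 1 lower at 48 h, against 2.47%. That Pdk4 difference fell short of 2-fold without background correction, at -0.77, and with an offset of 50, at -0.95.

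Other genes of the pathway were read from 11 lists holding 141 genes, of which 130 had a named probe and 103 entered the test. On the arrays labelled LIXs 9 rose and 1 fell, and the median was 0.34. Of all tested genes 4.33% rose and 4.47% fell, and the median was 0.01. The counts of single lists below stand against these shares, rest on few genes and are a description. Of the 103 differences 81 were above 0.

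In mitochondrial beta-oxidation 2 of 17 genes rose, against 4.33% of all tested genes. Eci2, an isomerase for unsaturated acyl-CoA, rose by 1.01 ± 0.21 (limma adjusted p = 0.030), with 1585 in the LIXs-labelled and 819 in the WT-labelled pool at 24 h and 1183 in the LIXs-labelled and 642 in the WT-labelled pool at 48 h. Acad10, an acyl-CoA dehydrogenase family member, rose by 0.80 ± 0.21 (limma adjusted p = 0.044). The list's median was 0.38, and both genes had LIXs above WT at each time.

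Ketone metabolism and transport had 5 tested genes, of which 1 rose and 1 fell. Bdh2, a cytosolic dehydrogenase annotated for 3-hydroxybutyrate, rose by 0.88 ± 0.23 (limma adjusted p = 0.044). Slc16a6, a monocarboxylate transporter that exports ketone bodies from liver in zebrafish, fell by 1.18 ± 0.25 (limma adjusted p = 0.030). This value uses 1 LIXs array without detection, where the difference at 24 h is a bound of at least 2.57-fold lower. Slc16a6 was dim, at 123 in LIXs, below detection, and 186 in WT at 24 h, and at 165 in the LIXs-labelled and 213 in the WT-labelled pool at 48 h. Bdh1, the mitochondrial enzyme that makes 3-hydroxybutyrate, differed by 0.18 ± 0.22 without passing.

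Among 12 lipid droplet and lipolysis genes 2 rose, Plin5 and Fitm1, and 8 of the 12 differences were above 0. Plin3 differed by -0.73 ± 0.21 (limma adjusted p = 0.056) without passing. Fitm1 serves the formation of lipid droplets. It had 146 and 152 in LIXs at 24 h and 48 h and was not well above background in either WT Dox pool, so its increase is at least 1.53-fold on the corrected scale (limma adjusted p = 0.030), against 1.28-fold between the deposited means. Among 17 regulators 2 rose, the coactivator Ppargc1b by 0.98 ± 0.21 (limma adjusted p = 0.030) and Prkaa2, a catalytic subunit of AMP-activated kinase, by 0.90 ± 0.21 (limma adjusted p = 0.034). Ppara differed by -0.04 ± 0.21 and its partner Rxra by 0.32 ± 0.23, neither past the test.

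Among 9 acyl-CoA thioesterases 2 rose, Acot1 and Acot7, and 6 of the 9 differences were above 0. Acot11 differed by -0.74 ± 0.21 (limma adjusted p = 0.054) without passing. Acot7, a cytosolic thioesterase best known from brain, rose by 0.77 ± 0.21 (limma adjusted p = 0.048). The paralogs Acot3, Acot4 and Acot6 differed by 0.54 ± 0.25, 0.08 ± 0.21 and -0.22 ± 0.23 without passing.

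In the other 6 lists 0 tested genes passed. Their medians were 0.35 for uptake and activation, 0.25 for the carnitine shuttle, 0.37 for peroxisomal oxidation and 0.33 for microsomal omega-oxidation. Pyruvate dehydrogenase kinases and phosphatases had 0.16 and secreted factors 0.49. The largest differences in these lists were those of the peroxisomal transporter Abcd3 at 0.77 ± 0.22 and the thiolase Acaa1b at 0.73 ± 0.21. Slc27a5 and Slc27a2, which import and activate fatty acids, both stood at 0.66 ± 0.21, Cyp4f14 at 0.64 ± 0.21 and Cyp4a31 at 0.39 ± 0.21. Pdp2 had 0.59 ± 0.21, Pdk1 0.58 ± 0.22, the carnitine transporter Slc22a5 0.43 ± 0.22 and Crat 0.27 ± 0.22. Angptl6 stood at -0.70 ± 0.25, the opposite direction to Angptl4.

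At 24 h alone 8 of 106 detected pathway genes measured 2-fold or more higher on the array labelled LIXs and 2 lower, against 3.72% and 4.91% of all genes counted the same way. For 2 of the 8, Acad9 and Pnpla3, WT was not well above background and the bounds were at least 1.96-fold and 1.55-fold. Without background correction these counts were 2 higher and 0 lower. At 48 h 3 of 104 were higher and 1 lower, against 1.59% and 2.47%. The 3 were Fitm1, Ppargc1b and Prkaa2, with Fitm1 bounded at 1.62-fold or more.

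The fasted WT pool was set against the refed WT pool, the pair of nutritional states in the series, with 1 array each and no test. Whether the arrays bear out these 2 food labels was not tested. Pck1 had 293 in fasted and 430 in refed WT, and Angptl8, which responds to insulin, had 883 and 374. Fgf21, which liver releases during fasting, had 1225 in fasted and 667 in refed WT. Ehhadh was lower in the fasted pool, with a log2 difference of -1.69, or 3.24-fold. Angptl4 was 2.52-fold and Pdk4 2.07-fold lower in the fasted pool. These were 3 of the 7 genes at 2-fold or more, against 12.3% of all genes that were lower. Of the 7, 0 were 2-fold higher, against 11.9% of all. Fgf21 came closest, 1.97-fold higher in the fasted pool. Acot1 differed by -0.26, Plin5 by -0.37 on its brighter probe and Acadm by 0.22. The dimmer Plin5 probe went the other way, with 1.25. The acute phase markers were higher on the refed array, where 5 of 7 exceeded the fasted pool 2-fold, and their part in these values was not tested.

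Against the WT pools on Dox, which had been without food for 6 h, the fasted pool ranked differently. These comparisons share the fasted array and are given side by side. Acot1 was higher in the fasted pool by 2.57 than in WT at 24 h of Dox and by 1.38 than at 48 h. Fgf21 was higher by 1.29 and 1.31, and Acadm by 0.84 and 0.74. Angptl4 differed by -0.92 and -0.60, and Ehhadh by -0.16 and -0.72. Fgf21 and Acadm were thus highest in the fasted pool against all 3 other WT pools, and Angptl4 and Ehhadh lowest. Pdk4 differed by 1.17 from the earlier and by -1.10 from the later Dox pool. Both fell short of 2-fold without background correction, at 0.61 and -0.78, and with an offset of 50, at 0.87 and -0.96. Plin5 differed by 0.03 and 0.43 on its brighter probe, whereas its dimmer probe was higher in the fasted pool by 1.65 and 1.58. Genes are counted here by their brightest probe. At 2-fold, 3 of the 7 genes were higher and 0 lower than in WT at 24 h of Dox, against 17.1% and 15.2% of all genes. Than in WT at 48 h, 2 were higher and 1 lower, against 15.5% and 14.5%. The fasted and refed mice differed from these pools in Dox as well as in food, and the 2 cannot be told apart.

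**Figure D4:**
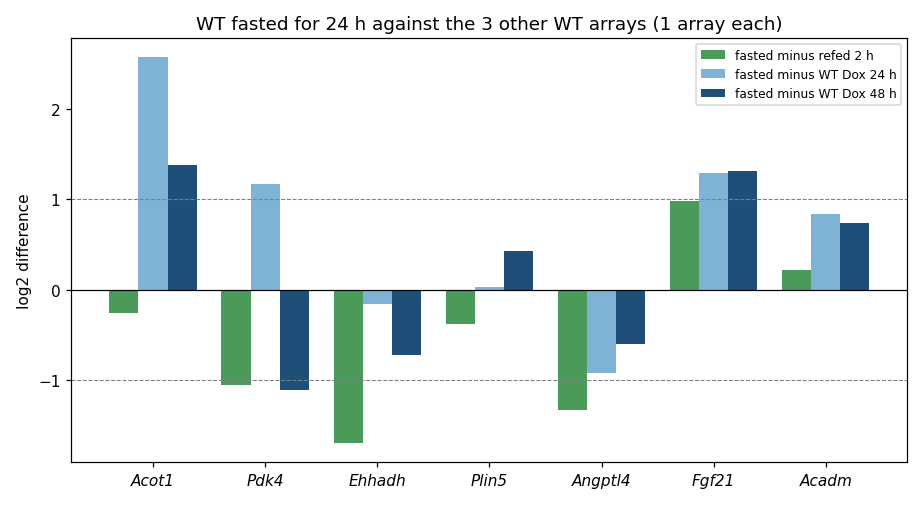
Log2 difference of WT fasted for 24 h minus each of the other 3 WT pools (refed for 2 h, green; 24 h of Dox, light blue; 48 h of Dox, dark blue) for the brightest probe of the 7 detected genes, 1 array per group; dashed lines mark 2-fold. Fgf21 and Acadm are above 0 in all 3 comparisons, Angptl4 and Ehhadh below 0 in all 3, and Pdk4 has both signs.

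Across the pathway lists 20 of 108 genes measured 2-fold or more lower and 3 higher in fasted than in refed WT, against 12.3% and 11.9% of all genes, and the median was -0.30, against 0.09 over all genes. Without background correction 6 were lower and 1 higher. For 3 of the 20, Acot2, Oxct1 and Ppargc1a, the fasted pool was not well above background and the bound was under 2-fold. Counts within single lists rest on few genes, and shares such as 2 of 13 are near that of all genes. The carnitine shuttle had 3 of 6 genes lower. Crat, carnitine acetyltransferase, was not well above background in the fasted pool, at 124 in fasted and 224 in refed WT. It was at least 3.59-fold lower on the corrected scale and 1.81-fold lower in deposited intensity. Slc22a5, the carnitine transporter, differed by -1.29, with 333 in fasted and 681 in refed WT, and Cpt2, the inner carnitine palmitoyltransferase, by -1.03. Pdk1 and Pdk2 were at least 2.85-fold and 2.31-fold lower on the corrected scale, and 1.60-fold and 1.47-fold lower in deposited intensity. Of the 4 pyruvate dehydrogenase kinases these 2 and Pdk4 were lower, while Pdk3, detected in the fasted pool alone, was at least 1.13-fold higher.

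Peroxisomal oxidation had 2 of 13 genes lower, Ehhadh and Ech1. Ech1 is an isomerase and had 3867 in fasted and 10294 in refed WT. Microsomal omega-oxidation split by gene. Cyp4a14 and Cyp4a31 differed by -1.06 and -1.02, with Cyp4a14 at 6574 in fasted and 13635 in refed WT, while Cyp4a12a and Cyp4f14 differed by 0.78 and 0.86. The 3 genes higher in the fasted pool were Angptl8, an insulin-responsive secreted relative of Angptl4, at 1.49, Lpl at 1.16 and Fitm1 at 1.13. In lipid droplets Plin2, a droplet coat protein, differed by -1.24 and the lipase Mgll by -1.11. Among regulators, Mlycd, which removes the malonyl-CoA that blocks Cpt1a, differed by -1.62. Ppargc1a was at least 1.28-fold lower, while Ppara differed by 0.07.

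Mitochondrial beta-oxidation had 0 of 17 genes past 2-fold in this pair. Its median was -0.38, with Acads at -0.998, just short of the threshold, and Echs1 at -0.89. Uptake and activation had 0 of 8 past 2-fold and a median of 0.52, led by Acsm3 at 0.77 and Slc27a4 at 0.68. Among thioesterases, Acot4 differed by -1.02 and Acot2 was at least 1.15-fold lower. For ketone genes, Oxct1 was at least 1.52-fold and Slc16a6 at least 1.64-fold lower on the corrected scale, and 1.26-fold and 1.19-fold lower in deposited intensity.

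**Figure D5:**
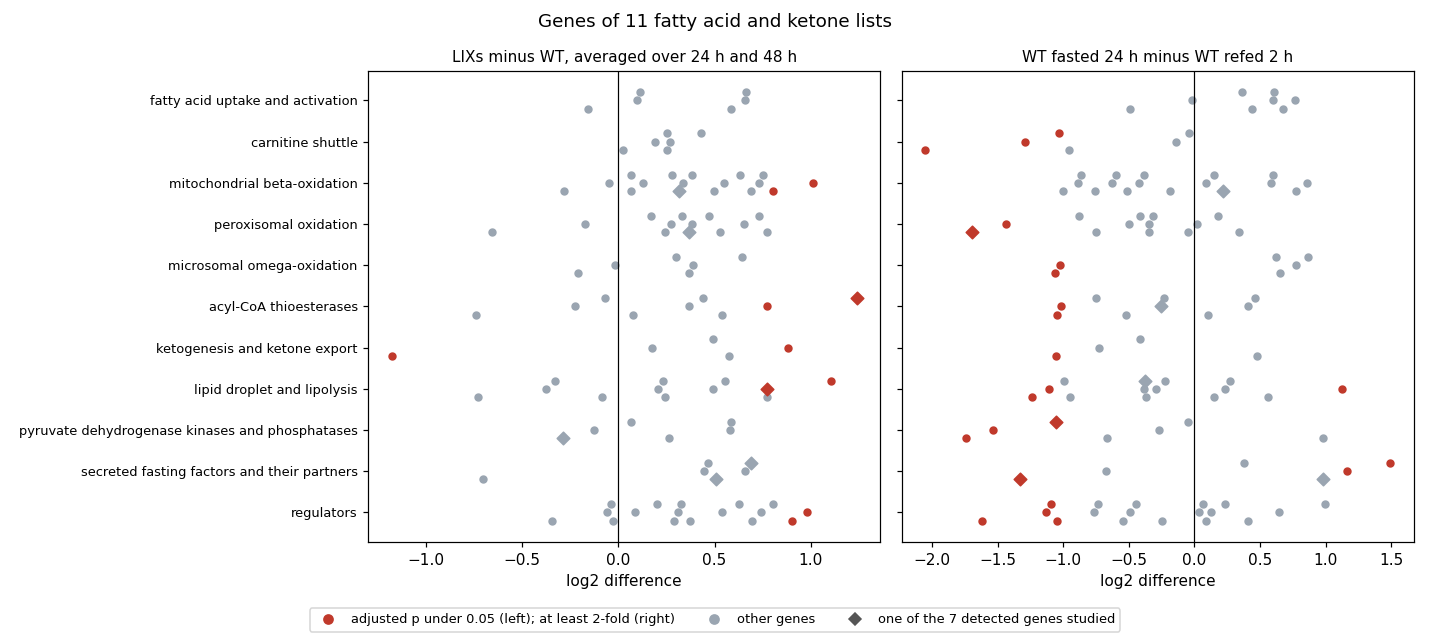
Log2 difference of each detected gene of 11 pathway lists, averaged over arrays labelled LIXs minus WT on Dox (left) and WT fasted for 24 h minus WT refed for 2 h (right). Red points passed the limma test at adjusted p under 0.05 (left) or measured 2-fold or more apart on 1 array each (right), and diamonds are the 7 detected genes studied. In the left panel 9 red genes lie above 0 and 1 below; in the right panel 3 lie above and 20 below.

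Profiles over the 6 arrays were compared with those of 5790 other genes detected on every array, by the root-mean-square distance of log2 values after centring each gene on its mean. The closest profile to Acadm was that of Tdo2, a tryptophan dioxygenase, at 0.038 log2 units, and then Slco2a1 at 0.072. For Plin5 they were Pex19 at 0.082 and Serpinc1 at 0.090, for Angptl4 Slco2b1 at 0.10 and F5 at 0.11, and for Fgf21 Iqcb1 at 0.10 and Wars2 at 0.13. For Ehhadh they were Gaa at 0.14 and Hsd17b10 at 0.16. The profiles of Pdk4 and Acot1 had less close neighbours, Ier3 and Hspb1 at 0.28 and 0.29 and Gm4952 and Nlrp12 at 0.28 and 0.30. Ier3, an immediate early gene, had 229 in the LIXs-labelled and 223 in the WT-labelled pool at 24 h and 284 in the LIXs-labelled and 630.01 in the WT-labelled pool at 48 h, so the WT pool at 48 h was its highest array too. None of the closest pairs joined 2 of the 7 genes to each other.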

How the data were processed

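Pooled liver RNA was measured on Illumina arrays, 1 array per group. The authors deposited 1 linear intensity per probe and array with GenomeStudio, per the submitters' processing notes; its method and version are not known here. The values spanned 81.1 to 50652 with near-identical quantiles on every array, and were taken as normalized but not background-subtracted. A second table with 6 signal columns was not used, because their names match no sample.

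The background was the mode of all intensities, 109, with an SD of 7.67. Background was corrected by normexp with these values and an offset of 16, followed by quantile normalization and log2 (limma 3.58.1, R 4.3.3). Each gene was represented by its brightest probe; 34885 probes had 1 gene name, 18 several and 10378 none. The labelled LIXs minus WT difference was fitted by limma (lmFit, eBayes) to the 4 Dox arrays, blocking on time, over 7652 genes detected on at least 2 of them, with Benjamini-Hochberg adjustment to 0.05. The fit had 1 residual degree of freedom plus a prior of 9.69, so SEs come mostly from all genes together. That 1 degree of freedom is the change of the genotype difference between 24 h and 48 h. Since each group was 1 pool, the p-values measure no spread between like pools or between animals. The fit was also run on data simulated from its own prior, with genotype effects equal at both times. Such data cannot show how the fit does on these arrays. Other comparisons had 1 array a side, no test, and a threshold of 2-fold over genes detected on at least 1 array. Where a gene was detected on 1 side alone, the fold is a lower bound: the detected mean was divided by the lowest detected signal or, if higher, by the dim signal itself. Precision is limited by having so few arrays.

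Members and gene lists were chosen with earlier results of these data known. Named by rule were all members, pathway genes past the test, up to 2 per list with the largest differences, Acot paralogs and the 2 closest profiles. Other names were chosen after their values were seen, as were the motifs beyond the paired AGGTCA.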

Additional observations from a re-analysis of the deposited data

Results flagged for a closer look

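For 3 probes, LIXs minus WT had opposite signs at 24 h and 48 h, and the difference between times was not tested. For Pdk4 the difference was 0.52 at 24 h and -1.10 at 48 h, a change of -1.62. Ehhadh had 0.86 and -0.13 at these times, a change of -0.98. For the dimmer Plin5 probe they were 0.41 and -0.08, a change of -0.48. Each time had 1 pool per genotype.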

How the results depend on the processing

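The averaged test called 10 pathway genes, 2 of them among the 7, and 673 genes in all. Without background correction it called 38 pathway genes, 4 of the 7 and 1670 in all. With an offset of 50 it called 33 and 1281, and with detection required on all 4 Dox arrays 19 pathway genes and 919 in all. It called 0 of each without a filter on dim probes, at a detection level that leaves a share of 0.05, and without the time block, with 2918, 2233 and 1810 genes at an unadjusted p under 0.05 in limma. Leaving out 1 array at a time, without the block, gave 0 to 4 pathway genes, 0 to 1 of the 7 and 0 to 287 in all. Without the LIXs array at 24 h or at 48 h, 0 pathway genes passed, and without the WT array at 24 h or 48 h, 4 and 3. The averaged difference of Pdk4 reversed to 0.04 without the LIXs array at 24 h and to 0.85 without the WT array at 48 h, and was -1.43 (limma adjusted p = 0.037) without the WT array at 24 h. Each fit without 1 array mixes genotype with time, and the cause was not tested. Angptl4 also passed with an offset of 50 and with detection on all 4 Dox arrays. Changing only the filter, the probes in the fit or the time block leaves each averaged difference as it was, so those fits could not change a sign. Without background correction, with an offset of 50 and with any 1 array left out, 6 genes stayed above 0. They were Acot1, Plin5 on its brighter probe, Angptl4, Fgf21, Acadm and Ehhadh.

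Counts of pathway genes at 2-fold shrank without background correction, which compresses dim probes. At 24 h of Dox 10 became 2 (4 with an offset of 50, 6 with the mean of all detected probes), and at 48 h 4 became 0 (0 with an offset of 50). Fasted against refed 23 became 7 (14 with an offset of 50), against WT at 24 h of Dox 37 became 21, and against WT at 48 h 32 became 16 (21 with an offset of 50). Pdk4 in fasted against refed WT was -0.74 without background correction. The mean of both Plin5 probes reversed fasted against refed to 0.44, and took fasted against WT at 48 h of Dox from 0.43 to 1.01. The time block of the main test already pairs LIXs with WT of the same time, and no pairing by replicate could be tried, since each group has 1 array.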

Other observations

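Between the WT pools at 48 h and 24 h of Dox, 6 of 105 pathway genes measured 2-fold or more higher and 0 lower, against 2.45% and 1.3% of all genes. They were Hilpda, an inhibitor of droplet lipolysis, with 1439 at 48 h and 342 at 24 h, Pdk4, Lpl, Acot1, Cyp4a14 and Ppargc1a. Ppargc1a was not well above background at 24 h, and its bound was at least 1.55-fold. Lpl had 659 in WT at 48 h and 338 in WT at 24 h. In the LIXs pools 4 of 107 measured 2-fold or more higher and 0 lower, against 0.5% and 0.825% of all genes. Hilpda and Cyp4a14 were among them, Hilpda with 820.3 at 48 h and 385 at 24 h, and Cyp4a12b and Slc16a6 were the others, Slc16a6 with a bound of at least 1.98-fold. In the fit of the 4 Dox arrays, the effect of time averaged over genotypes was 1.87 for Hilpda (limma adjusted p = 0.086), 1.26 for Cyp4a14 (limma adjusted p = 0.112) and 0.80 for Slc16a6 (limma adjusted p = 0.299). None of them passed.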
